A study of Oncorhynchus mykiss with 70 samples.

Results

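Liver was compared with the other non-muscle tissues of a rainbow trout expression atlas, over 49 genes of the activin receptor pathway. The 3 samples titled Liver were set against the unweighted mean of 15 tissues, which held 45 samples, out of 70 samples in all. The 15 tissues were Heart, Gill, Brain, Spleen, Head Kidney, Visceral Fat, Ovaries, Testes, Cardiac Stomach, Retina, Pelvic Fin, Distal Intestine, Pyloric Caeca, Bulbus Arteriosus and Tongue, with 3 samples each. The 22 samples of 7 skeletal muscles were left out because their titles hold the word Muscle. All fish were untreated, clonal rainbow trout of the Swanson and Oregon State University lines, aged 2 to 3 years and reared in recirculating systems, and the labels do not say which line a sample came from. The Liver samples and all others were male, except the Ovaries samples. RNA was counted with NanoString probes, colour-barcoded probes that are read without amplification, and the extraction reagent differed between tissues. The design text calls the replicates biological, but no label says which samples came from the same fish, so a p-value here speaks only of how far apart the deposited samples were. None of the 18 marker genes chosen for hepatocytes, blood, muscle and fat is among the probes, so the label Liver could not be checked against markers.

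Activins are dimers of inhibin beta chains that bind type II receptors, which then activate type I receptors. Type I receptors phosphorylate the receptor-regulated Smads, which enter the nucleus with a common Smad. Follistatin binds and neutralizes activins, bambi is a receptor-like protein without a kinase, and inhibitory Smads dampen the signal. In mammals the activin beta C chain is made mainly in the liver. Many trout genes are present as a pair of copies left by the salmonid genome duplication, and the last digit of a symbol tells the copies apart.

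The targets of 3 pairs of probes are shown because the main differences in Liver rest on them and because each pair stands for 2 gene copies. Each target has 100 bases, is written 5′ to 3′ from the authors' probe list, and has in capitals the longest run shared with the target of the partner copy. That run had 6 bases in the inhbcb and acvr2ba pairs and 5 bases in the inhbab pair. It compares the 2 targets with each other, not a target with the whole transcript of the other copy. A short run therefore does not show that a probe reads only 1 copy.
inhbcb2: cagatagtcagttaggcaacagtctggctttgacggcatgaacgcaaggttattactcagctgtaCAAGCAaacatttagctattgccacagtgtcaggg
inhbcb1: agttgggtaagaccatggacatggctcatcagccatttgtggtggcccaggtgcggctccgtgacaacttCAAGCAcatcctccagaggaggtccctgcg
acvr2ba2: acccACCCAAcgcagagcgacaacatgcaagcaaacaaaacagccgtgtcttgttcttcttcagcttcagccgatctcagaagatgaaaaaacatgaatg
acvr2ba1: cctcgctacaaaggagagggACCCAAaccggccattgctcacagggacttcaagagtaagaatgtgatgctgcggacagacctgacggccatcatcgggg
inhbab2: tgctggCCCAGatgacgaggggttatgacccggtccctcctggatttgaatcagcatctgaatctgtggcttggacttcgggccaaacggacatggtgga
inhbab1: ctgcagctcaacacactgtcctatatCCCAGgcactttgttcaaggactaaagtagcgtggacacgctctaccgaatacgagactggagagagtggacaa
The authors' gene list places inhbcb2 on chromosome 7, inhbcb1 on 17, acvr2ba2 on 11, acvr2ba1 on 15, inhbab2 on 8 and inhbab1 on 28. According to the same list the acvr2ba2 probe is specific to its locus, whereas the acvr2ba1 probe also matches the acvr2ba2 locus. The signal of the acvr2ba1 probe can therefore not be assigned to 1 copy.

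Total counts were 91538 in Liver 1, 109419 in Liver 2 and 115908 in Liver 3, within the range of the other samples (56080 to 269554). Pathway probes took 2821, 2369 and 5535 of these counts. Background was set, for each sample, 2 SD above the mean count of its 8 negative controls. On that basis 23 pathway genes were above background in Liver 1, 25 in Liver 2 and 44 in Liver 3. All 3 Liver samples were above background for 21 genes and none of them for 5. Values below are counts divided by the geometric mean of the reference genes actb, ef1a and tbp, rescaled so that this divisor has a geometric mean of 1 over the 48 samples. The divisor was 0.460, 0.502 and 0.954 in Liver 1, 2 and 3. Relative to the positive controls, the reference genes themselves differed between Liver and the mean of the other tissues, by a log2 difference of -1.20 for actb (cytoplasmic actin), 0.29 for ef1a (a translation factor) and -1.49 for tbp (the TATA-binding protein). In bulk RNA, fewer cells of a type and less RNA per cell cannot be told apart.

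Of the 49 genes, 11 were higher in Liver than in the mean of the 15 tissues and 6 were lower, by edgeR's quasi-likelihood test with a Benjamini-Hochberg adjusted p below 0.05. These are 22.4% and 12.2% of the genes tested, 34.7% in either direction, and 32 genes did not pass. The median log2 difference over all 49 genes was 0.01. In this test the mean of the 15 tissues is taken on the log scale, so its folds differ from ratios of arithmetic tissue means. Both activin beta C genes, 4 of 7 type II receptors and both bambi genes were higher, while the type I receptors acvr1ba1 and acvr1ba2 and the common Smads smad4bb1 and smad4bb2 were lower. The split of calls moved with the scaling: 8 genes were higher and 9 lower when samples were scaled on the pathway probes or by DESeq2's own size factors, 8 and 8 with TMM, 5 and 6 with the positive controls, 5 and 26 with ef1a alone, and 19 and 3 with tbp alone. With each tissue summed to 1 unit, so that the spread between the 15 tissues was the error, 3 genes passed, all higher: inhbcb2, inhbcb1 and acvr2ba2.

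**Figure D1:**
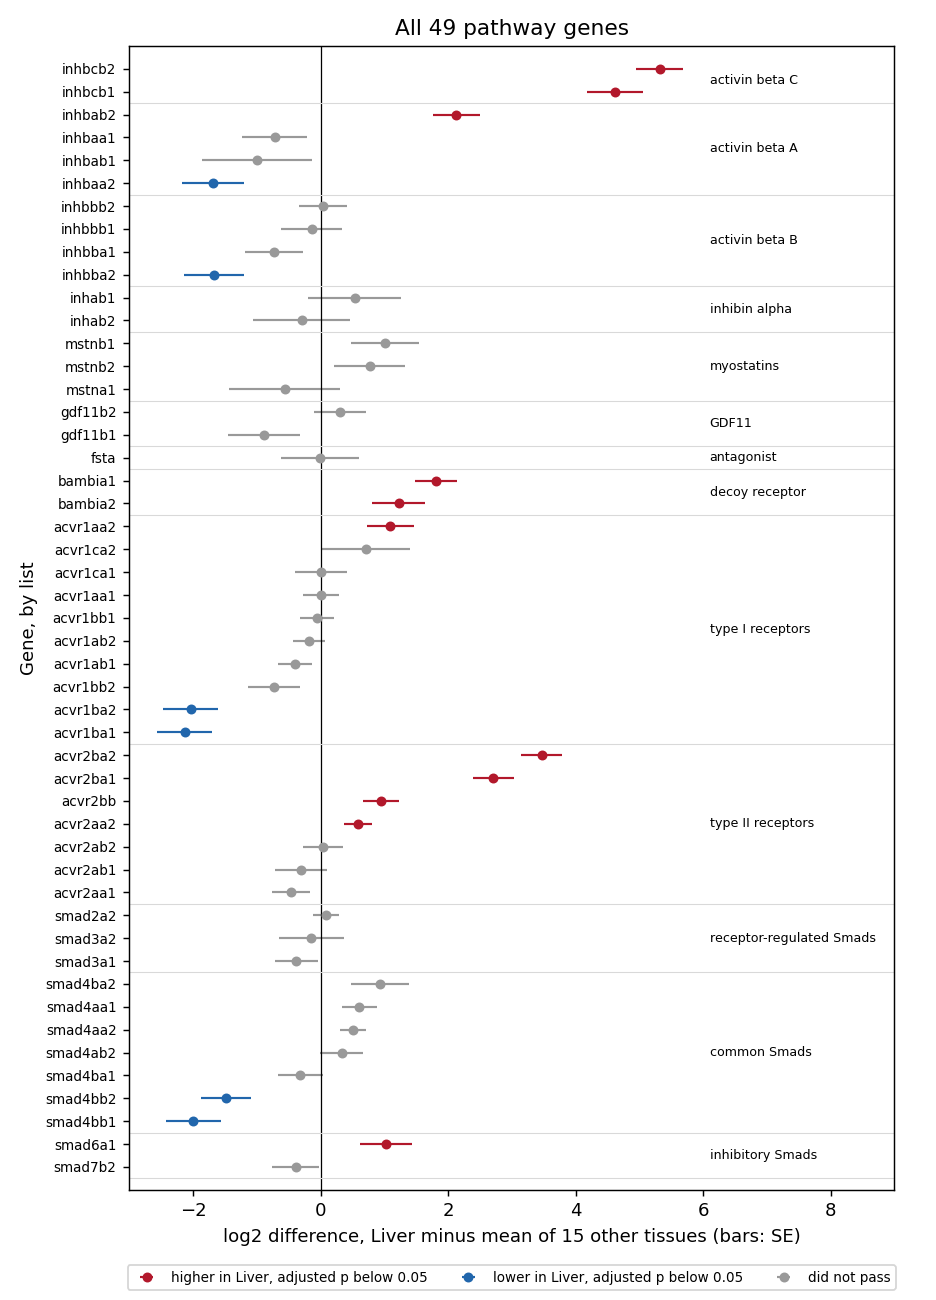
The log2 difference between Liver and the mean of 15 other tissues is plotted on the horizontal axis for each of the 49 pathway genes, grouped by role. Bars show a standard error derived from the F statistic of the edgeR test. The 2 activin beta C genes lie farthest to the right at 5.32 and 4.61, 11 genes are red (higher), 6 are blue (lower) and 32 are grey (did not pass).

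Among the ligands, the activin beta C genes had the largest differences. The gene inhbcb2 had scaled counts of 1694 in Liver 1, 138 in Liver 2 and 754 in Liver 3, from 780, 69 and 719 counts. The 15 other tissue means ran from 7.73 in Distal Intestine to 56.4 in Spleen, and the highest other sample was Spleen 1 at 95.2. All 3 Liver samples lay above all 45 others, although Liver 1 and Liver 2 were far apart. The log2 difference was 5.32 ± 0.37 (SE), which is 39.98-fold, with an adjusted p of 2.75e-15 in edgeR's quasi-likelihood test. For inhbcb2 Liver had the widest spread of all tissues, with an SD of 1.80 against a pooled 0.67 in the others. Both SDs were taken on log2(scaled count + 10). The fit shares 1 spread per gene over all tissues, so ± and p do not fully carry the wider spread of Liver. Without Liver 1 the log2 difference was 4.37. By arithmetic tissue means Liver was 34.4-fold higher. The gene was above background in 23 of the 45 other samples, so many values on the low side are close to background.

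The second activin C gene, inhbcb1, had scaled counts of 406, 33.9 and 56.6 in Liver 1, 2 and 3, from 187, 17 and 54 counts. Other tissue means ran from 1.497 in Distal Intestine to 21.4 in Visceral Fat. The Liver samples lay above 44 of the 45 others, the exception being Tongue 2 at 35.2. Its difference on the log2 scale was 4.61 ± 0.44 (adjusted p = 1.26e-11, edgeR). It rested in part on Liver 1: without that sample the difference fell to 2.77, with an adjusted p of 0.000184 (edgeR). Liver also had the widest spread for inhbcb1 on log2(scaled count + 10), with an SD of 1.73 against a pooled 0.47. The added 10 narrows the spread of low values, so it lowers the pooled SD more than that of Liver. The limit on ± and p given for inhbcb2 applies here too. Liver 2 was not above background for inhbcb1, and only 8 of the other 45 samples were, so the low side of this fold is mostly background. Both copies were highest in Liver 1 and lowest in Liver 2. Liver passed as higher than each of the 15 tissues for both inhbcb genes.

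**Figure D2:**
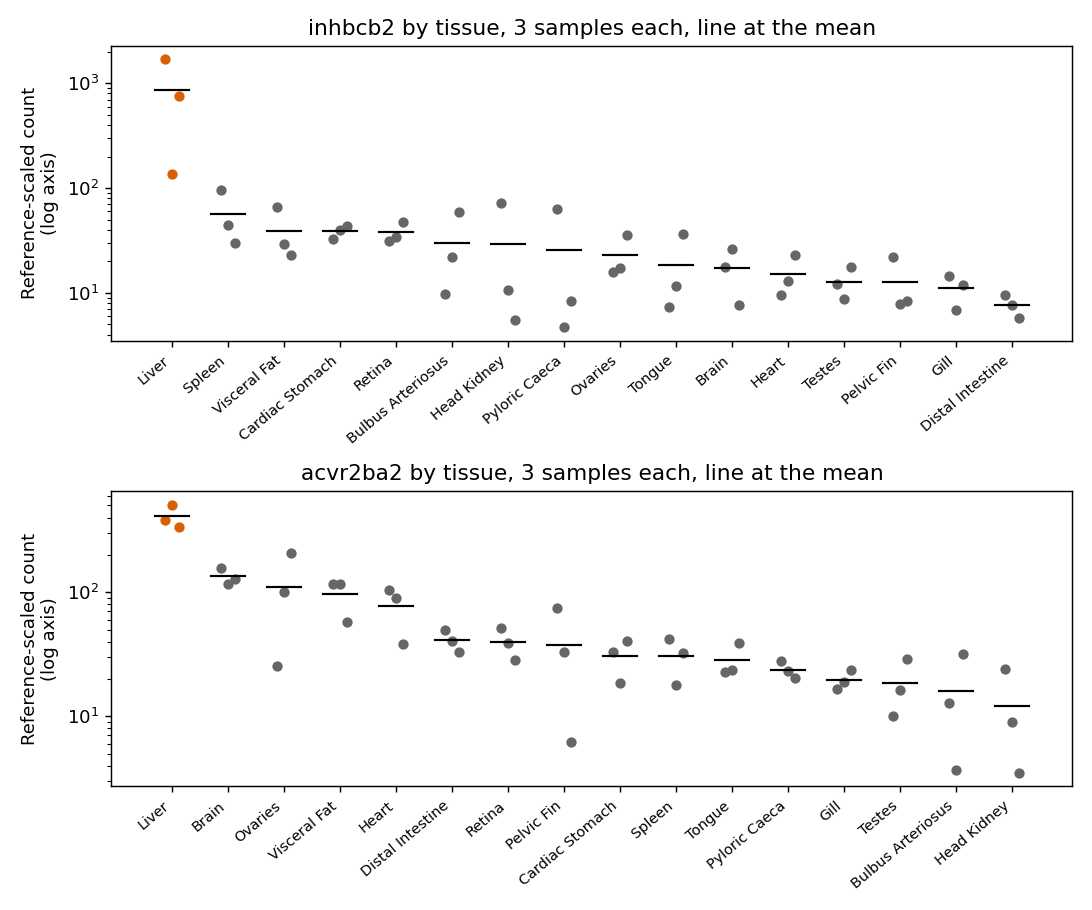
Reference-scaled counts on a log axis are shown for inhbcb2 and acvr2ba2 in each of 16 tissues, with 3 samples as points, Liver in orange and a line at the tissue mean. Liver has the highest mean in both panels; its inhbcb2 samples spread from 138 to 1694, while its acvr2ba2 samples lie between 338 and 508.

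The 4 activin beta A genes, whose product forms activin A, did not move together. The gene inhbab2 had scaled counts of 34.8, 21.9 and 53.5 in Liver 1, 2 and 3, from 16, 11 and 51 counts, while the other tissue means ran from 2.62 to 24.2, the latter in Visceral Fat. Its Liver samples lay above 42 of 45 others, and the log2 difference was 2.13 ± 0.37 (adjusted p = 1.2e-05, edgeR). Only Liver 3 was above background, as were 5 of the 45 others, so this is a difference between low counts. Liver passed as higher than 12 of the 15 tissues, the others being Heart, Brain and Visceral Fat. The gene inhbaa2, on chromosome 11, had scaled counts of 2.17, 7.98 and 6.29 in Liver 1, 2 and 3, against tissue means of 11.8 in Visceral Fat to 54.9 in Testes. Its log2 difference was -1.68 ± 0.49 (adjusted p = 0.00539, edgeR). All 3 Liver samples were at background, and 42 of the other samples lay above them. Only 23 of the 45 others were above background, so this too is a difference between low counts. Without Liver 1 the adjusted p was 0.0581. The other 2 genes did not pass, at log2 differences of -0.99 (inhbab1) and -0.72 (inhbaa1).

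Of the 4 activin beta B genes, 1 was lower in Liver and 3 did not pass. The gene inhbba2, on chromosome 22, had scaled counts of 10.9, 14.0 and 17.8 in Liver 1, 2 and 3, with 11.2 in Pyloric Caeca to 113 in Bulbus Arteriosus as the range of other tissue means. Its log2 difference was -1.68 ± 0.47 (adjusted p = 0.00445, edgeR), and 38 of 45 other samples lay above all Liver samples. Liver 1 and Liver 2 were not above background for it. With tbp alone as the reference, the calls of inhbba2 (adjusted p = 0.0963, edgeR), inhbaa2 (0.136) and the common Smad smad4bb2 (0.13) were lost.

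None of the myostatin, gdf11 and inhibin alpha genes passed with the 3 reference genes as the scale. Of the myostatins, which restrain muscle growth, mstnb1 had scaled counts of 8.69, 37.9 and 26.2 in Liver and a log2 difference of 1.01 (adjusted p = 0.155, edgeR), mstnb2 one of 0.77 and mstna1 one of -0.57. For the gdf11 genes, close relatives of myostatin, the differences were -0.88 (gdf11b1) and 0.31 (gdf11b2). Some of these passed on another scale: mstnb1 was higher with actb alone (adjusted p = 0.0303, edgeR) and tbp alone (0.00513), and mstnb2 (0.0319) and gdf11b2 (0.0238) with tbp alone. In contrast gdf11b1 was lower with pathway scaling (adjusted p = 0.0348, edgeR), with ef1a alone (0.0065) and with DESeq2's own size factors (0.0484). The inhibin alpha genes, whose chain pairs with a beta chain to oppose activin, had differences of 0.53 (inhab1) and -0.29 (inhab2). The mstna1 and inhab1 probes each match both copies, according to the authors' list. The Ovaries set the top of the inhab1 range, at a mean of 3640 against 60.2 in Liver. That mean came from uneven samples, at 6324, 4318 and 276 in Ovaries 1, 2 and 3. The arithmetic mean of the other tissue means was 394, above Liver, although the log2 difference of inhab1 was positive. The antagonist fsta, follistatin, had scaled counts of 26.1, 19.9 and 14.7 in Liver and a log2 difference of -0.01 (adjusted p = 0.985), and its counts were not above background in any Liver sample. The fsta probe matches 2 loci, according to the authors' list.

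Both probes of the decoy receptor bambi were higher in Liver. On chromosome 11, bambia1 had scaled counts of 397, 548 and 372 in Liver 1, 2 and 3, while the other tissue means reached at most 283, in Retina. The highest other sample, Cardiac Stomach 2 at 449, lay between Liver samples. The log2 difference was 1.81 ± 0.32 (adjusted p = 1.61e-05, edgeR), and Liver passed as higher than 11 tissues; Gill, Cardiac Stomach, Retina and Bulbus Arteriosus did not pass. The adjusted p was 0.0799 with ef1a alone as the reference and 0.102 with the positive controls. Its copy bambia2, on chromosome 15, was uneven among the Liver samples, at 130, 27.9 and 67.1, and overlapped the other tissues. Liver 2 was not above background for bambia2, while 34 of the 45 other samples were. The log2 difference of bambia2, 1.23 ± 0.42 (adjusted p = 0.0195, edgeR), did not pass without Liver 1 (adjusted p = 0.47) or without Liver 3 (0.0521). With ef1a alone it was 0.16 (adjusted p = 0.792) and with the positive controls 0.37 (0.688), and the call was also lost with the negative controls subtracted (0.103) and with limma and a pseudocount of 10 (0.055).

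**Figure D3:**
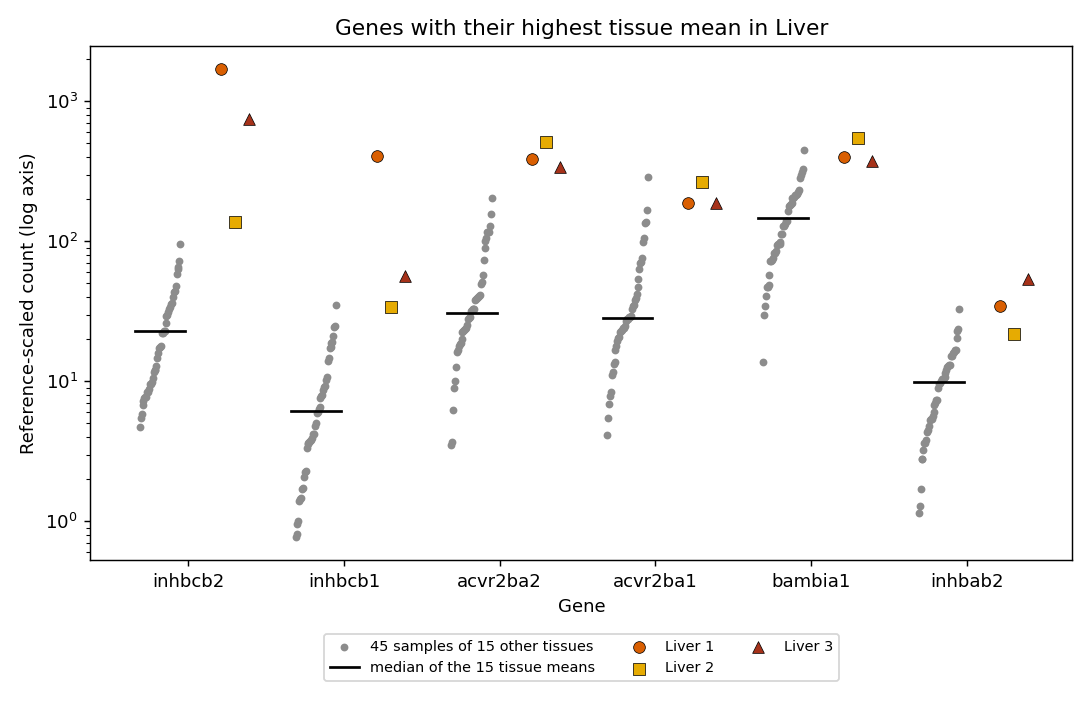
Reference-scaled counts on a log axis are shown for the 6 genes whose highest tissue mean was in Liver, with the 45 other samples as grey points in ascending order, their median tissue mean as a line and Liver 1, 2 and 3 as coloured symbols. For inhbcb2 and acvr2ba2 all 3 Liver symbols lie above every grey point.

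Type II receptors, which bind the ligand first, were described as a list: 4 of 7 were higher and none was lower. Over all 49 genes, 11 (22.4%) were higher and 6 (12.2%) were lower. The 4 include both acvr2ba probes, which are not independent because the acvr2ba1 probe also matches the acvr2ba2 locus. The median log2 difference of the list was 0.59, the value of acvr2aa2, against 0.01 over all genes. Scaled counts of acvr2ba2 were 384, 508 and 338 in Liver 1, 2 and 3, a mean of 410 ± 88.2 (SD, n = 3). The other tissue means ran from 12.1 in Head Kidney to 134 in Brain, and the highest other sample was Ovaries 3 at 205. All Liver samples were thus above all others, and they were close together. Liver exceeded the other tissues by a log2 difference of 3.47 ± 0.32, or 11.1-fold (adjusted p = 1.13e-11, edgeR). By arithmetic tissue means it was 8.59-fold higher. Liver passed as higher than each of the 15 tissues. The smallest of these was a log2 difference of 1.61 over Brain.

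The acvr2ba1 probe read 187, 265 and 188 in Liver 1, 2 and 3, against tissue means of 8.03 to 150, the latter in Ovaries. Ovaries 3, at 288, was above all Liver samples, although Ovaries 1 and Ovaries 2 were at 63.6 and 99.0. The other 44 samples lay below all Liver samples. For this probe the log2 difference was 2.71 ± 0.32 (adjusted p = 3.25e-09, edgeR), and Brain and Ovaries were the 2 tissues from which Liver did not pass as higher. As given above, this probe also matches the acvr2ba2 locus. Smaller differences were found for acvr2bb, on chromosome 8 (23.9, 73.8 and 49.3 in Liver; log2 difference 0.95 ± 0.29, adjusted p = 0.00796, edgeR), and acvr2aa2, on chromosome 22 (239, 150 and 219 in Liver; 0.59 ± 0.23, adjusted p = 0.0401). Both overlapped the other tissues, and acvr2aa2 was lower in Liver than in Brain. Neither direction held with ef1a as the only reference, where the differences were -0.16 and -0.50. For acvr2bb, Liver 1 was not above background, while 33 of the 45 other samples were. The acvr2bb call was lost without Liver 2 (adjusted p = 0.324, edgeR), and that of acvr2aa2 without Liver 1 (0.254) or Liver 3 (0.193). The acvr2aa2 call was also lost in 16 of 33 other settings, among them pathway scaling (0.207) and TMM (0.0846), and that of acvr2bb in 7 of 33, among them the same scalings (0.159 and 0.0962). The remaining 3 type II genes lay between -0.46 and 0.04.

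Type I receptors, the kinases that pass the signal to Smads, were split: of 10 genes, 1 was higher, 2 were lower, and the median log2 difference was -0.12. Over all 49 genes, 22.4% were higher and 12.2% were lower. Both copies of acvr1ba, an activin type I receptor, had their lowest tissue mean in Liver. On chromosome 9, acvr1ba1 had scaled counts of 23.9, 23.9 and 27.3 in Liver 1, 2 and 3, against 36.9 in Visceral Fat to 505 in Distal Intestine. Of the other samples, 44 of 45 lay above all Liver samples. The log2 difference was -2.13 ± 0.43, with the others 4.38-fold higher (adjusted p = 9.49e-05, edgeR), and Liver was lower than 12 of 15 tissues. By arithmetic tissue means the others were 6.25-fold higher. On chromosome 16, acvr1ba2 had 4.34, 43.9 and 20.97 in Liver 1, 2 and 3, against 26.6 in Head Kidney to 225 in Tongue. Its Liver samples were uneven and overlapped the others, with 37 of 45 above all of them. The log2 difference was -2.04 ± 0.43 (adjusted p = 0.000174, edgeR). It was -1.58 without Liver 1 and -2.79 without Liver 2, past the threshold in both. The raw counts in Liver were 11, 12 and 26 for acvr1ba1 and 2, 22 and 20 for acvr1ba2, so that Liver 1 and Liver 2 (acvr1ba1) and Liver 1 (acvr1ba2) were not above background.

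The single type I receptor higher in Liver, acvr1aa2 on chromosome 3, belongs to the genes of a receptor known in mammals mostly for bone morphogenetic proteins. It had scaled counts of 159, 118 and 184 in Liver and a log2 difference of 1.10 ± 0.37 (adjusted p = 0.0181, edgeR), with 33 of 45 other samples below and 5 above all Liver samples. The call was lost without Liver 1 (adjusted p = 0.064) or Liver 3 (0.147), and with ef1a alone the difference was -0.025. The copies of acvr1ca, another activin and Nodal receptor, did not pass, at log2 differences of 0.01 (acvr1ca1) and 0.71 (acvr1ca2). Visceral Fat held the highest acvr1ca1 mean, at 1339 against 28.7 in Liver.

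**Figure D4:**
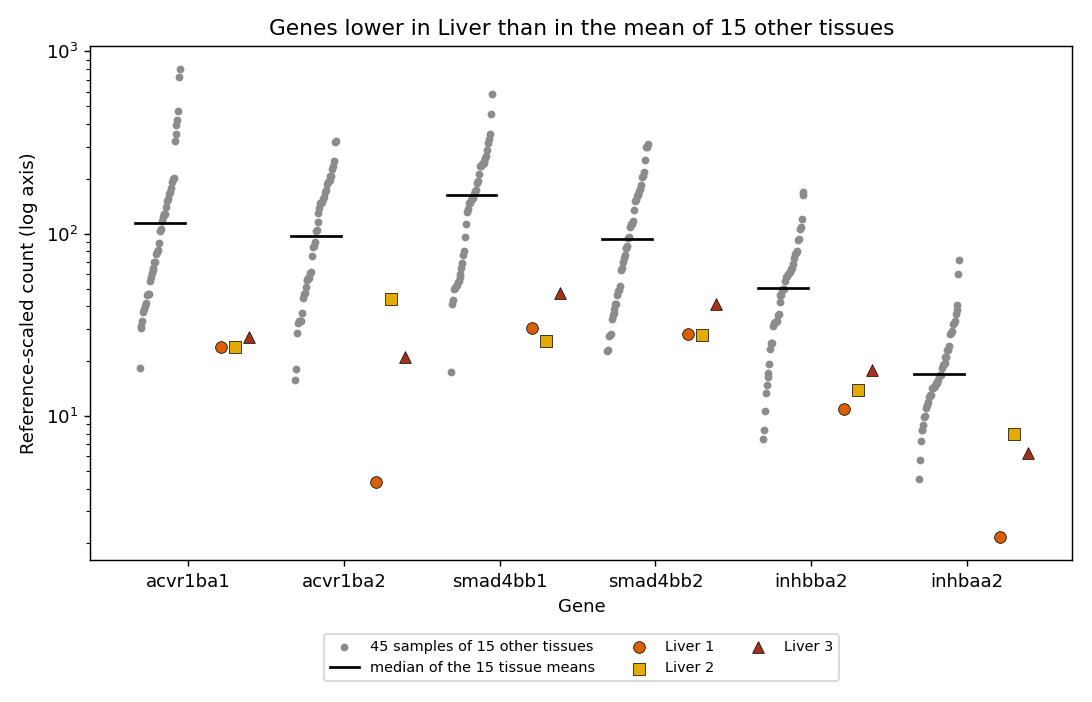
Reference-scaled counts on a log axis are shown for the 6 genes lower in Liver, with the 45 other samples as grey points in ascending order, their median tissue mean as a line and Liver 1, 2 and 3 as coloured symbols. Each Liver symbol lies below the median line, yet no gene has all 3 of them below every grey point.

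Among the Smads, none of the 3 receptor-regulated genes passed (log2 differences of -0.38 to 0.09). The smad2a2 probe also targets another smad2 locus (93%), according to the authors' list. Of 7 common Smads, 2 were lower and none higher, against 12.2% and 22.4% over all genes, while the median was 0.33. On chromosome 2, smad4bb1 had scaled counts of 30.4, 25.9 and 47.2 in Liver 1, 2 and 3, with other tissue means from 37.6 in Pyloric Caeca to 369 in Bulbus Arteriosus, and 42 of 45 other samples were above all Liver samples. Its log2 difference was -1.99 ± 0.44 (adjusted p = 0.000282, edgeR). Its copy smad4bb2, on chromosome 3, had 28.2, 27.9 and 40.9 and a difference of -1.48 ± 0.40 (adjusted p = 0.00301, edgeR), with 36 of 45 others above. In Liver 1 and Liver 2 neither copy was above background, with 14 and 13 counts for smad4bb1. Liver was lower than 11 tissues for smad4bb1 and 9 for smad4bb2; for both copies Spleen, Head Kidney, Distal Intestine and Pyloric Caeca were among the tissues that did not pass.

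The inhibitory Smad smad6a1, in mammals a brake mainly on bone morphogenetic protein signals, had scaled counts of 130, 106 and 272 in Liver and a log2 difference of 1.03 ± 0.41 (adjusted p = 0.0494, edgeR). It overlapped the other tissues and was lower in Liver than in Bulbus Arteriosus. The call was lost without Liver 1 (adjusted p = 0.0636) or Liver 3 (0.477), and in 22 of 33 other settings, among them pathway scaling (0.129), TMM (0.0822) and limma with a pseudocount of 10 (0.0827). With ef1a alone the difference was -0.047. The other inhibitory Smad, smad7b2, did not pass at -0.39.

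Across the 735 pairs of a gene and a tissue, which share the 3 Liver samples, 160 were higher in Liver (21.8%) and 131 were lower (17.8%) by the same test. With pathway scaling the balance turned, to 117 higher and 168 lower. Brain stood at one end, with 4 genes higher and 22 lower in Liver, and Heart had 6 and 15. At the other end were Pyloric Caeca with 20 higher and 6 lower, Head Kidney with 19 and 1, and Distal Intestine with 18 and 6. The median log2 difference over all genes was -1.24 for Brain and -0.40 for Heart. It was 0.99 for Pyloric Caeca, 0.86 for Head Kidney and 0.66 for Distal Intestine. The medians did not order the tissues as the counts did. Pelvic Fin, with 13 higher and 7 lower, had 0.83, and Gill, with 11 and 8, had 0.70. The counts of pairs thus include a shift of the whole panel, and its cause was not tested. By tissue means, Liver was the highest of 16 tissues for inhbcb1, inhbcb2, acvr2ba1, acvr2ba2, bambia1 and inhbab2, and the lowest for acvr1ba1, acvr1ba2, inhbaa2 and smad4bb1. All 3 Liver samples were above all 45 others for 2 genes (4.08% of 49), and below all others for 0 genes (0%). The authors' deposited table of normalized signal, with 1 value per tissue, had Liver highest for 6 genes. For most genes its values follow from the same counts, so this is not separate evidence. Liver's rank was the same in both for 22 of the 49 genes, and acvr1ba1 ranked 15 in the authors' table. Of the 15 other tissues, 6 are on another scale than Liver in that table (Gill, Heart, Cardiac Stomach, Distal Intestine, Pelvic Fin and Retina), so its ranks mix scales. Liver's values in the authors' deposited table were 601 for inhbcb2, 98.8 for inhbcb1 and 434 for acvr2ba2.

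Use of the copies was compared in 21 pairs of duplicates, as the share of a pair's counts that fell on the second copy. In 2 pairs (9.52%) the ratio of copies in Liver differed from the mean of the other tissues, by edgeR's quasi-likelihood test in which each sample kept its own level. For inhbab the second copy took 88.9%, 91.7% and 91.1% of the counts in Liver 1, 2 and 3, against tissue means of 16.5% in Ovaries to 72.2% in Head Kidney. The log2 difference of the ratio was 3.15 ± 0.71 (adjusted p = 0.00143, edgeR), but the first copy had 2, 1 and 5 counts in Liver, none above background. With the negative controls subtracted the value was 7.10 and the call was lost (adjusted p = 1), and with limma and a pseudocount of 10 it was 1.41, so its size changed with the setting. For acvr2aa, which codes for an activin type II receptor, the second copy took 57.0%, 46.9% and 49.6% in Liver, against 17.1% in Retina to 58.9% in Testes. The log2 difference was 1.01 ± 0.25 (adjusted p = 0.00308, edgeR), and without Liver 1 the adjusted p was 0.0598. Counts of this pair in Liver were 83, 85 and 212 for the first copy and 110, 75 and 209 for the second, all above background.

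The copies of inhbcb did not pass. The second copy took 80.7%, 80.2% and 93.0% in Liver, against 75.5% as the mean of the other tissues, with a log2 difference of 1.00 ± 0.48 (adjusted p = 0.128, edgeR). The value was not stable: it was 1.498 with limma (adjusted p = 0.00244) and 1.05 without Ovaries 3 (adjusted p = 0.0498, edgeR), both past the threshold, but 0.41 without Liver 3 and -0.27 with the negative controls subtracted. For the acvr2ba and inhab pairs the first probe also matches the second copy, so a ratio of their probes is not a ratio of copies. The acvr2ba2 probe took 67.3%, 65.7% and 64.3% of that pair's counts in Liver against a mean of 52.4% elsewhere, and the ratio did not pass (log2 difference 0.76 ± 0.29, adjusted p = 0.0557, edgeR).

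**Figure D5:**
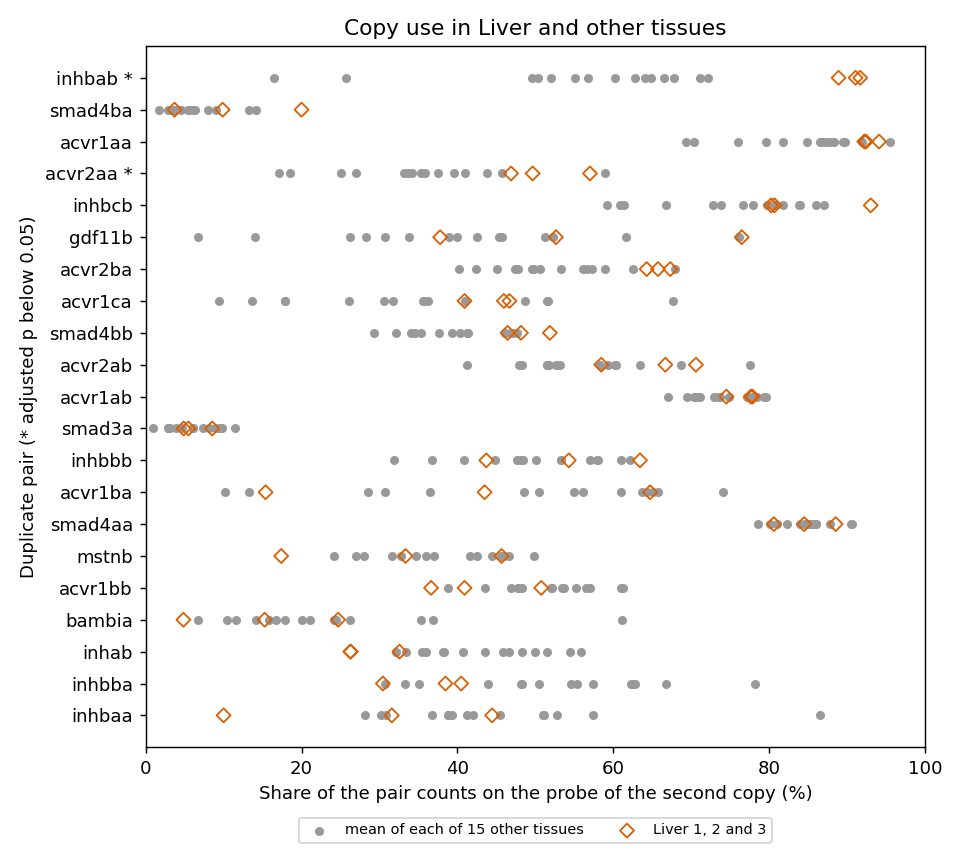
The share of a pair's counts that fell on the second copy is shown in percent for 21 duplicate pairs, with grey points for the means of 15 other tissues and open orange diamonds for Liver 1, 2 and 3. For inhbab the Liver diamonds lie near 90.5%, above every other tissue mean; for acvr2aa they lie between 46.9% and 57.0%, with the Testes mean of 58.9% above them.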

How the data were processed

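The counts the authors deposited are whole numbers of barcodes, 1 for each probe in each sample, with neither background nor depth corrected, as the values show; the lowest count in any sample was at least 1. The deposited normalized signal of the authors has 1 value for each gene in each tissue, and how it was made was not given in the sources used. For 47 of 49 genes its Liver signal was a constant times the geometric mean of the 3 Liver counts, and it was used only for ranks, the values quoted and the set of tissues that share Liver's scale. A sheet of older gene names was left aside, and the markers fixed for the tissue check were not on the panel.

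Counts of 48 samples were fitted with edgeR 4.0.16 in R 4.3.3, with 1 coefficient per tissue and the reference genes (geometric mean of the 3 counts) as offset. The contrast was Liver minus the mean of the 15 other coefficients. Each gene had 1 estimate of spread shared by all tissues. The SE of a log2 difference was derived, as its absolute value divided by the square root of the test's F statistic. P-values were two-sided and adjusted by Benjamini-Hochberg over 49 genes, 735 gene and tissue pairs or 21 duplicate pairs. DESeq2 1.42.0 and limma 3.58.1 on log2(scaled count + 10) or + 50 were alternatives. Python 3.11.15, pandas 2.3.3 and matplotlib 3.10.9 were used for tables and figures. The fits were also run on simulated counts, drawn with 1 spread per gene for all tissues, as the fits assume. Such a run cannot show how the fits behave where Liver spreads more widely than the other tissues, as for inhbcb1 and inhbcb2. Probes may differ in efficiency, so levels were not compared between genes; the share of a duplicate pair's counts on 1 probe was compared between tissues only.

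The members and gene lists were chosen with earlier results of these data known. Genes were named if past the threshold, up to 15 per direction by size, with a mean count of at least 20 on the higher side; inhbcb1, inhbcb2, fsta, the myostatins, the gdf11 genes, inhbab2, acvr1ca1, acvr1ca2 and the reference genes were always named, as were duplicate pairs past the threshold and the inhbcb pair. Other genes were named to complete a list or pair, after their values were seen. No 2 replicates were copies of each other (lowest chi-squared per degree of freedom 2.40). Precision at low counts was limited by background, on average 5.75, 7 and 5.75 counts per negative control in Liver 1, 2 and 3. All 49 gene identifiers matched RefSeq entries of the assembly USDA_OmykA_1.1.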

Additional observations from a re-analysis of the deposited data

Results flagged for a closer look

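In 2 duplicate pairs the ratio of the second to the first copy differed between Liver and the other 15 tissues by a test of that difference. It was larger in Liver by 3.15 on the log2 scale for inhbab and by 1.01 for acvr2aa. The inhbab value has first-copy counts of 2, 1 and 5 in Liver, and the acvr2aa value was not past the threshold without Liver 1. Their causes were not tested.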

How the results depend on the processing

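The calls of inhbcb1, inhbcb2 and acvr2ba2 held under all 33 other settings and all 48 fits without 1 sample. Those of acvr2ba1, inhbab2, acvr1ba1, acvr1ba2 and smad4bb1 were lost in 1 setting, tissue as the unit. The 11 genes higher became 5 with ef1a alone, 19 with tbp alone, 5 with positive controls, 7 with negative controls subtracted and 3 with the tissue as unit. The 6 genes lower became 26, 3 and 0 with ef1a alone, tbp alone and the tissue as unit. The sign turned with ef1a alone for acvr1aa2 (-0.025), acvr2aa2 (-0.50), acvr2bb (-0.16) and smad6a1 (-0.047), and with positive controls for acvr2aa2 (-0.19). The median of all genes was -1.09 with ef1a alone, -0.75 with positive controls, 0.61 with tbp alone, 0.44 with actb alone, -0.27 with pathway scaling and -0.19 with TMM; 15 genes were higher and 6 lower with actb alone, 8 and 8 with TMM, and 5 and 6 with positive controls. Leaving out 1 sample gave 7 (without Liver 3) to 13 genes higher and 5 to 6 lower. Gene and tissue pairs were refitted only without each Liver sample, with 110 to 139 higher and 96 to 124 lower. The 2 copy pairs became 5 with limma and 1 with negative controls subtracted, and 2 to 8 without 1 sample: 8 without Ovaries 3 and 5 without Head Kidney 1, Ovaries 2, Cardiac Stomach 1 or Bulbus Arteriosus 3. The smad6a1 call was lost in 30 of the 48 fits without 1 sample. Deviations of Liver 1, 2 and 3 correlated with those of same-numbered samples at 0.108, 0.139 and 0.0487. Liver 1 and Liver 2 correlated best with their own number, and Liver 3 with number 1 (0.0891). Correlations this weak, over genes often near background, cannot decide whether the replicate numbers pair the samples. With the replicate number as a block, 10 genes were higher and 6 lower, 2 copy pairs differed, and smad6a1 had an adjusted p of 0.0519. The causes of these changes were not tested. Total counts were 109419 in Liver 2 and 115908 in Liver 3, with 25 and 44 genes above background. Pathway counts were higher in Liver 3 (5535) than in Liver 1 (2821) and Liver 2 (2369). So was the divisor, at 0.954 against 0.460 and 0.502. What limits Liver 1 and Liver 2 was not tested.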

Other observations

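Over the 16 tissue means, the genes most like inhbcb2 in their order of levels were mstnb2 (Spearman's rho 0.81), smad4ba2 (0.73) and mstnb1 (0.69); inhbcb1 came after these at 0.61. These are descriptions over means of 3 samples, many of them near background, and they share the reference divisor. In Liver, smad4ba2 had 2, 8 and 17 counts and mstnb2 had 2, 4 and 21.

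The Liver samples differed from each other most in the activin C genes. On log2(scaled count + 10), relative to the mean of the other 2 Liver samples, inhbcb1 deviated by 2.94 in Liver 1 and inhbcb2 by -2.95 in Liver 2. Over all 49 genes the median SD among Liver samples, on that same scale, was 0.31, rank 11 of 16 tissues from the widest. That median does not describe every called gene. Their ranks ran from 1, the widest, for inhbcb1, inhbcb2, inhbab2, acvr1ba2 and acvr2bb, to 15 for acvr1ba1. Genes outside the calls that came near the threshold were the common Smads smad4aa2 (log2 difference 0.51, adjusted p = 0.0526, edgeR) and smad4aa1 (0.61, adjusted p = 0.0843, edgeR).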
